A study of Homo sapiens with 6 samples.

Results

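The genes described here are 10 genes of neuroendocrine secretory granules, synaptic vesicles and neurofilaments, read in A549 cells with and without BAP18 knockdown. They are VGF, the granins CHGA, CHGB and SCG2, the granule chaperone gene SCG5, the synaptic vesicle gene SYP, the neuronal intermediate filament genes NEFL, NEFM and INA, and REST, which encodes a repressor of neuronal genes. They were taken by name from the 35474 genes listed in the deposited count table, and all 10 were listed and passed the filter on low counts, among 20776 genes tested. The choice was made with the results of these libraries known. VGF was selected on its difference in counts between siBAP18 and siCtrl cells, so the differences of these genes between the groups are given as a description and without a test.

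The A549 line was grown from a human lung adenocarcinoma. One group of 3 cultures was transfected with siBAP18, small interfering RNA against the chromatin-associated protein BAP18, and the other group of 3 cultures with the non-specific siCtrl. All were collected after 48 h, and poly(A) RNA was sequenced in bulk. The sources used here do not state which of several BAP18 siRNAs these cultures received.

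Neuroendocrine cells and neurons keep peptides and amines in dense-core granules. Granins are acidic proteins that aggregate in the lumen of these granules and are cut into peptides, and neurofilaments are the intermediate filaments of axons. REST binds an element in many neuronal genes and silences them outside the nervous system with corepressors such as SIN3A and RCOR1 (CoREST). Chromogranin A and synaptophysin, the products of CHGA and SYP, are standard stains for neuroendocrine tumors of the lung.

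The libraries held 42094524 to 56548620 counts. The targeted gene, listed as C17orf49, was read 743, 751 and 705 times in siCtrl and 120, 137 and 108 times in siBAP18. The epithelial markers KRT7, KRT8, KRT18, KRT19, EPCAM and CDH1 were expressed in every library, with a summed level of 21150 to 22979 CPM in siCtrl and 16892 to 21068 CPM in siBAP18. CPM denotes counts scaled to library totals adjusted by TMM. The 6 markers moved apart, and at a Benjamini-Hochberg adjusted p under 0.05 in edgeR 4 were lower, 1 was higher and 1 did not pass. Of all genes tested, 25.1% were lower and 24.5% higher at that threshold. CDH1 fell from 63.9 to 25.5 CPM (log2 fold change −1.32), and KRT7 rose from 2384 to 3213 CPM (0.43). Of the defining neuroendocrine markers, INSM1 was not listed, NEUROD1 had at most 2 counts in any library, and NCAM1 had 9 to 26 counts, and their part in the values below was not tested. In the longer list of 20 neuroendocrine factors and markers read below, only 8 were tested, but some of these were well expressed. UCHL1 averaged 317 CPM in siCtrl and 278 CPM in siBAP18, ENO2 37.8 and 36.3 CPM, and SOX2 16.1 and 18.7 CPM. Leukocyte markers summed to at most 1.31 CPM, endothelial markers to at most 1.15 CPM and fibroblast markers to at most 13.2 CPM in any library. The cells therefore carried granin and neurofilament transcripts with the lineage factor gene NEUROD1 at or near 0. In bulk RNA, a change in the number of cells that express a gene and a change in RNA per cell cannot be told apart.

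The promoters of VGF and CHGA are shown first, because these granin genes share 2 motifs at close distances from the start. The 2 genes differed in opposite directions. Each window runs from 250 bases before the start of the gene to 50 bases after it and was taken from RefSeq (GRCh38.p14). The VGF window is chr7:101165520-101165819 on the − strand, and the CHGA window is chr14:92922900-92923199 on the + strand. Capitals mark the cAMP response element TGACGTCA (CRE, the site bound by CREB and ATF factors) and the EGR site GCGNGGGCG.
VGF: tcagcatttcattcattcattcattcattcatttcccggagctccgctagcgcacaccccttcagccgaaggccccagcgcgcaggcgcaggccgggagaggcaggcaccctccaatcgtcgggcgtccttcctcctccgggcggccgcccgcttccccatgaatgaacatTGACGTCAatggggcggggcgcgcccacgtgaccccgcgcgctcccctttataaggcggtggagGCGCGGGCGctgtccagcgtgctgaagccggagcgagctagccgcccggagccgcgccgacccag
CHGA: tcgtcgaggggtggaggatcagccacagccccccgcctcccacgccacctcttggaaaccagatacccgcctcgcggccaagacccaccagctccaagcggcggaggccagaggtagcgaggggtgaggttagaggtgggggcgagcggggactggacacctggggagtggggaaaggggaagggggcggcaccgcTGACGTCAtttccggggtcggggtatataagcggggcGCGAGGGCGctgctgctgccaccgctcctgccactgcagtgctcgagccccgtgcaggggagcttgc
The CRE began 79 bases before the start in VGF and 54 bases before it in CHGA. The EGR site began 15 bases before the start in VGF and 17 bases before it in CHGA. These starts are those of the windows and differ from the gene positions listed below. By the listed positions, the CRE of CHGA and the EGR sites of VGF and CHGA lie within the genes.

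Promoter windows were matched for 6 of the 10 genes, and REST had 2 windows, giving 7 windows in all. Motifs were searched on both strands. Of the 6 genes, VGF and CHGA held the full CRE, which was found in 1.85% of the 35116 windows of the table. The CRE core TGACG, which lies within the full CRE, was also found in SCG5 and occurred in 24.6% of windows. EGR sites were present in VGF, CHGA, SYP and both REST windows, against 9.43% of all windows. The AP-1 site TGANTCA was found in SYP and in 1 REST window, against 7.71% of windows. For the REST element, the left part TCAGCACC was in none of the 7 windows (1.67% of all windows), and the right part GGACAG was in VGF, INA and 1 REST window (20.5% of all windows). Among 413 tested genes with a full CRE, 4.12% were called higher and 2.91% lower by the call rule given below, beside 3.94% and 3.94% of the 11493 tested genes with a window. For the 861 genes with an AP-1 site these shares were 7.67% and 4.41%. Genes with an EGR site (2157) had 3.34% and 3.57%, and those with the CRE core (4504) had 3.51% and 3.17%. The REST left part (244 genes) had 6.56% and 6.97%, and the right part (2957 genes) had 4.63% and 4.06%. The shares of the motifs were not tested. A match in these windows is a run of letters and was not tested as a binding site.

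Calls rest on 2 thresholds, an absolute log2 fold change over 1 together with a Benjamini-Hochberg adjusted p below 0.05 from the quasi-likelihood test of edgeR, over all genes tested, of which 8.46% were called. Of the 10 genes, 2 were called higher, VGF and NEFM, where 4.72% of all genes tested were called higher. None was called lower, where 3.74% of all genes were. At the adjusted p alone, 5 of the 10 passed as higher and 3 as lower, where 49.6% of all genes passed, 24.5% as higher and 25.1% as lower. The groups did not overlap in 56.6% of all genes tested. In 6 of the 10 genes every siBAP18 library lay above every siCtrl library (VGF, SCG2, SYP, NEFL, NEFM and INA), beside 27.6% of all genes tested. In CHGA and CHGB every siBAP18 library lay below every siCtrl library, beside 29.0% of all genes tested. SCG5 and REST overlapped between the groups. Since the genes were chosen with this contrast known, these counts are a description.

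**Figure D1:**
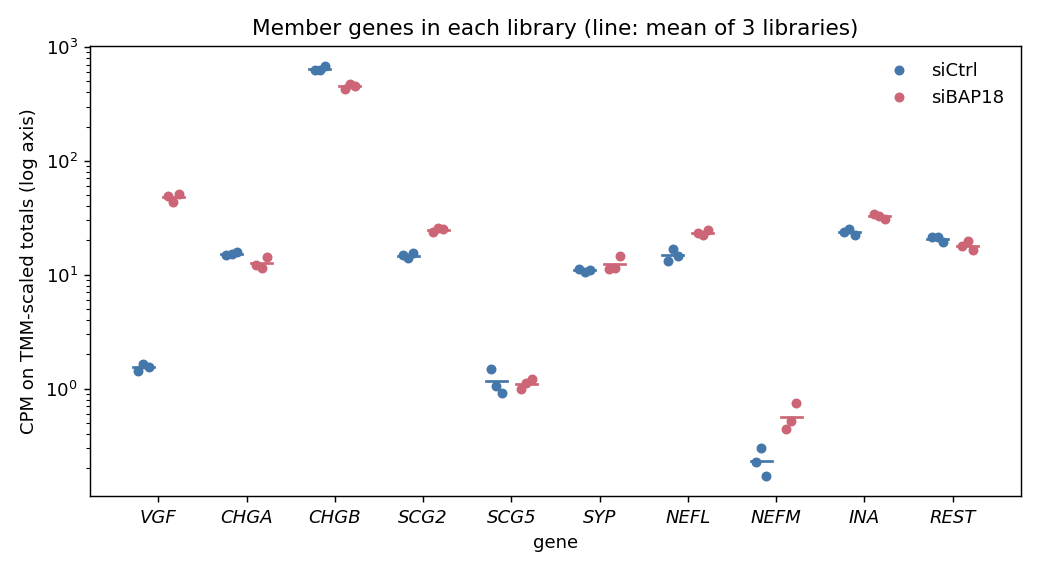
Expression of the 10 genes in each library, in CPM on TMM-scaled totals (log axis), with 3 siCtrl and 3 siBAP18 libraries as points and the mean of each group as a line. VGF moved from about the level of SCG5 (1.53 CPM, beside 1.15) to 47.9 CPM, above INA at 32.7 CPM, while CHGB stayed the most abundant gene in both groups.

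VGF encodes a secretory granule protein that is cut into several peptides and that is known as a gene induced by neurotrophins. Its position, on GRCh38 as for all genes below, is chromosome 7, 101162509 to 101165593, − strand, with 2704 exonic bases. Counts of VGF were 76, 76 and 72 in siCtrl and 2690, 2541 and 2060 in siBAP18. In CPM the siCtrl libraries stood at 1.43, 1.63 and 1.54, and the siBAP18 libraries at 49.4, 43.5 and 50.8. The groups were far apart, and all 3 siBAP18 libraries were high to a similar degree. The means were 1.53 ± 0.103 CPM (SD, n = 3) in siCtrl and 47.9 ± 3.88 CPM (SD, n = 3) in siBAP18, a log2 fold change of 4.96 (standard error 0.104), or 31.2-fold. Only 0.193% of the genes tested had a higher log2 fold change, and VGF ranked at 41 of 20776. Relative to the siCtrl mean, the 3 siBAP18 libraries were higher by 5.01, 4.83 and 5.05 on the log2 scale. The SD of the siCtrl libraries was 6.69% of their mean, below the 11.6% that counting error alone gives at this depth, so that the low control level rests on few reads that agreed closely. In siBAP18 the SD was 8.10% of the mean, beside 2.03% from counting error.

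Among 14222 genes whose average log2 CPM reached 1, the pattern over the 6 libraries was most like that of VGF in FOSB, DHRS2, ALOXE3, CIART and ATF3. Likeness was measured as the root mean square difference of log2 CPM centred on the siCtrl mean, which was 0.23 for FOSB, 0.25 for DHRS2, 0.40 for ALOXE3, 0.42 for CIART and 0.50 for ATF3. VGF was chosen for its rise, so genes with a rise of similar size come first by this measure. Their log2 fold changes were 4.27 to 4.74. In siCtrl, FOSB, DHRS2, ALOXE3 and CIART stood at 0.165, 1.40, 0.390 and 0.352 CPM, so they reached the level filter through the siBAP18 libraries. Shared regulation of these genes was not tested. FOSB encodes an AP-1 subunit, and ATF3 a stress-induced factor of the ATF/CREB family. DHRS2, a short-chain dehydrogenase/reductase gene, had 1.40 ± 0.332 CPM in siCtrl and 36.9 ± 4.38 CPM in siBAP18 (SD, n = 3 each), close to VGF in level as well. ATF3 stood higher in both groups, at 7.07 ± 0.499 and 137 ± 9.23 CPM (SD, n = 3 each). The pattern of NEFM was most like those of ATF4P4, FOS and CHST14, with differences of 0.18, 0.22 and 0.23, although NEFM itself had an average log2 CPM of only −1.20.

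CHGB was the most abundant gene of the group and was lower in siBAP18 cells. It encodes chromogranin B, a granule matrix protein, at chromosome 20, 5911430 to 5925361, + strand. Its level was 630.3, 632.8 and 675.9 CPM in the siCtrl libraries and 423.6, 472.3 and 456.7 CPM in the siBAP18 libraries. All 3 siBAP18 libraries lay below the lowest siCtrl library. The means were 646 ± 25.6 and 451 ± 24.9 CPM (SD, n = 3 each), which gives a fitted log2 fold change of −0.52 (standard error 0.0676), or 69.8% of the siCtrl level.

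CHGA encodes chromogranin A, the related granule protein, at chromosome 14, 92923080 to 92935293, + strand. CHGA stood at 15.0, 15.3 and 15.7 CPM in siCtrl and at 12.2, 11.5 and 14.3 CPM in siBAP18. The groups did not overlap, but siBAP18 replicate 3 came close to the siCtrl libraries. The log2 fold change was −0.28 (standard error 0.0881), and it lay between −0.37 and −0.22 with each library left out in turn.

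SCG2 encodes secretogranin II, the precursor of secretoneurin, at chromosome 2, 223596940 to 223602503, − strand. Unlike the chromogranins, it was higher in siBAP18 cells. Its level was 14.8, 13.9 and 15.5 CPM in siCtrl and 23.6, 25.5 and 25.1 CPM in siBAP18, with a clear gap between the groups. The means were 14.7 ± 0.803 and 24.7 ± 1.02 CPM (SD, n = 3 each), which gives a fitted log2 fold change of 0.75 (standard error 0.0774), or 1.68-fold.

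SCG5 encodes 7B2, a chaperone of the prohormone convertase PCSK2, at chromosome 15, 32641676 to 32697098, + strand. It had 79, 49 and 43 counts in siCtrl and 54, 65 and 49 counts in siBAP18, and the groups overlapped. The log2 fold change was −0.075 (standard error 0.237), with an interval of 2 standard errors from −0.55 to 0.40, and it turned to 0.15 without siCtrl replicate 1. A difference within that interval was not detectable in these libraries.

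SYP encodes synaptophysin, a membrane protein of synaptic vesicles, at chromosome X, 49187804 to 49200259, − strand. It stood at 11.2, 10.6 and 11.1 CPM in siCtrl and at 11.3, 11.4 and 14.6 CPM in siBAP18. The groups did not overlap, yet the first 2 siBAP18 replicates exceeded the highest siCtrl library only slightly, and replicate 3 stood apart. The log2 fold change was 0.17 (standard error 0.0983) and was 0.049 without siBAP18 replicate 3. The antisense gene SYP-AS1 shares exonic positions with SYP but had at most 26 counts in a library. The library kit marks strand, but use of strand in the counting step is not given in the sources used here.

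**Figure D2:**
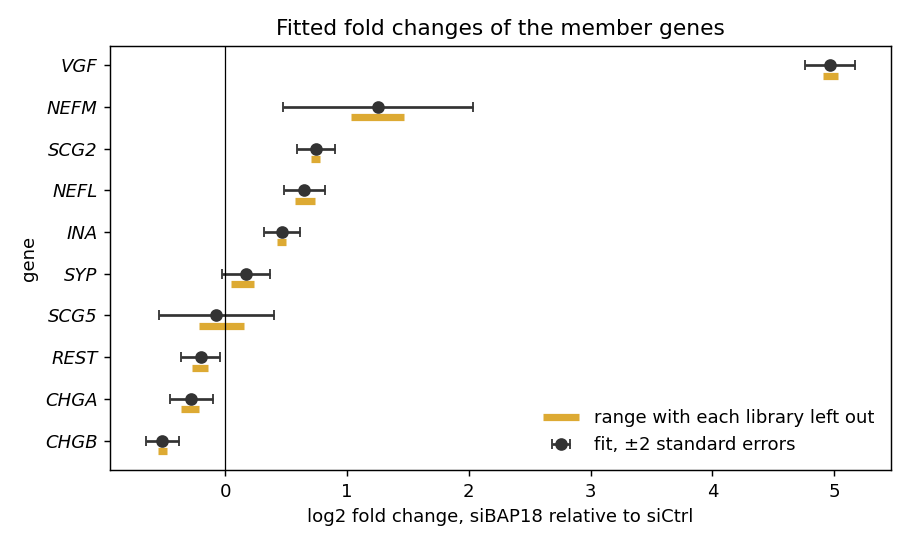
Fitted log2 fold change of each gene in siBAP18 relative to siCtrl cells, with bars of 2 standard errors and, below each point, the range when each of the 6 libraries was left out in turn. VGF stands at 4.96, NEFM at 1.25, and the other genes lie between −0.52 (CHGB) and 0.75 (SCG2).

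The granins were also compared per length, with RPKM, the deposited values per kilobase of gene length and sequencing depth. The summed RPKM of VGF, CHGA, CHGB and SCG2 was 153 ± 5.46 in siCtrl and 130 ± 6.48 in siBAP18 (SD, n = 3 each), and it did not overlap between the groups (148 to 159, beside 125 to 138). The total was thus lower although VGF and SCG2 were higher, since CHGB made up most of it. CHGB held 92.9 ± 0.0897% of this sum in siCtrl and 76.3 ± 1.61% in siBAP18 (SD, n = 3 each). VGF held 0.370 ± 0.0280% in siCtrl and 13.6 ± 1.38% in siBAP18, with 14.7%, 12.1% and 14.1% in replicates 1, 2 and 3. SCG2 went from 3.53 ± 0.119% to 6.97 ± 0.0616%, while CHGA took 3.22 ± 0.0656% and 3.14 ± 0.333% (SD, n = 3 each). The transcripts of this class therefore went from almost all CHGB to a mixture with VGF as the next gene.

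**Figure D3:**
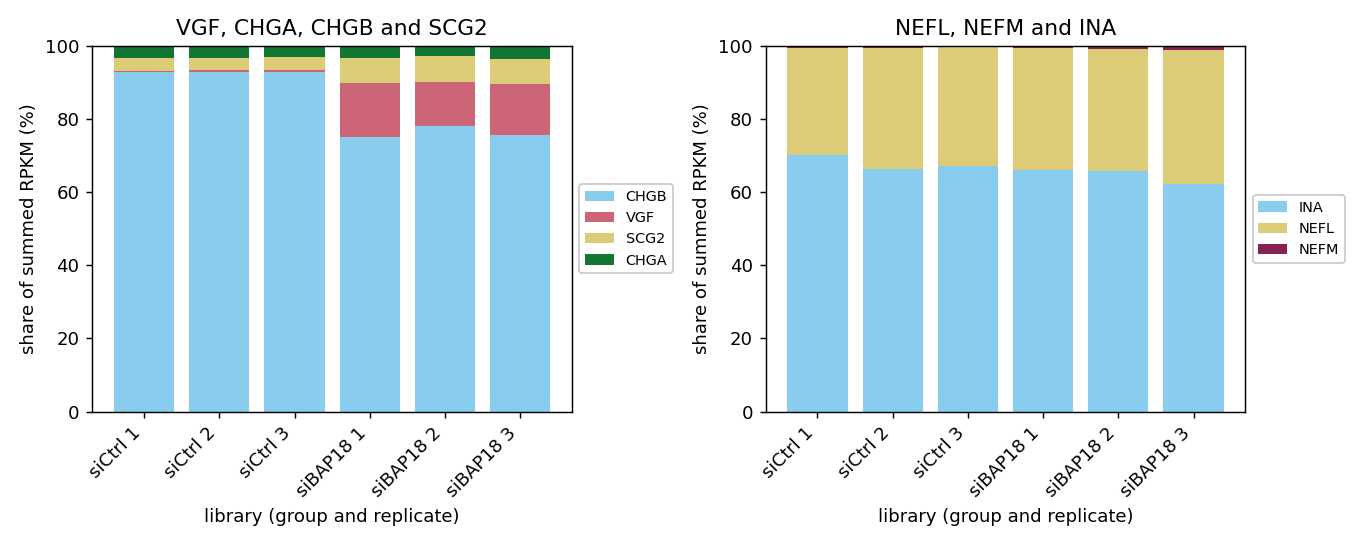
Share of each gene in the summed RPKM (percent) of the granins VGF, CHGA, CHGB and SCG2 (left) and of the neurofilament genes NEFL, NEFM and INA (right), as stacked bars for each of the 6 libraries. VGF takes 12.1% to 14.7% of the granin sum in the siBAP18 libraries and at most 0.402% in the siCtrl libraries. The neurofilament shares shift by fewer percentage points but do not overlap between the groups, with INA at 66.2% to 70.1% in siCtrl and 62.3% to 65.9% in siBAP18.

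INA, NEFL and NEFM were higher in siBAP18 cells, by less than VGF. INA encodes α-internexin, a neurofilament subunit of developing and adult neurons, at chromosome 10, 103277163 to 103290351, + strand. INA stood at 23.7, 25.0 and 22.5 CPM in siCtrl and at 34.1, 32.9 and 31.1 CPM in siBAP18, with no overlap. The log2 fold change was 0.47 (standard error 0.0730), or 1.38-fold. NEFL encodes the light subunit, at chromosome 8, 24950955 to 24957110, − strand. Its level was 13.3, 16.8 and 14.6 CPM in siCtrl and 23.1, 22.5 and 24.5 CPM in siBAP18, again without overlap. The log2 fold change was 0.65 (standard error 0.0848), or 1.57-fold. The siCtrl libraries varied more than the siBAP18 libraries in this gene (SD 11.7% and 4.24% of the mean).

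NEFM encodes the medium subunit, at chromosome 8, 24913012 to 24919098, + strand, and was barely expressed. Its counts were 12, 14 and 8 in siCtrl and 24, 30 and 30 in siBAP18. Every siBAP18 library exceeded every siCtrl library, at 0.565 ± 0.156 and 0.233 ± 0.0652 CPM (SD, n = 3 each). The log2 fold change was 1.25 (standard error 0.390), with an interval of 2 standard errors from 0.47 to 2.03, which takes in the value of NEFL. NEFM was no longer called without siCtrl replicate 3 (log2 fold change 1.08) or without siBAP18 replicate 3 (1.04), and it failed the filters of 10 counts in every library and of a mean RPKM of 0.5. Per length, the summed RPKM of the 3 neurofilament genes was 10.8 ± 0.846 in siCtrl and 15.7 ± 0.682 in siBAP18 (SD, n = 3 each). INA held 67.8 ± 2.03% and 64.7 ± 2.01% of these sums, and NEFL held 31.7 ± 2.02% and 34.5 ± 1.77% (SD, n = 3 each). NEFM held 0.486 ± 0.106% and 0.826 ± 0.239% (SD, n = 3 each).

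REST is found on chromosome 4, 56907876 to 56935844, + strand. It stood at 21.3, 21.3 and 19.6 CPM in siCtrl and at 17.8, 19.7 and 16.5 CPM in siBAP18. The groups overlapped, since siBAP18 replicate 2 lay above siCtrl replicate 3. The means were 20.7 ± 1.02 and 18.0 ± 1.60 CPM (SD, n = 3 each), which gives a fitted log2 fold change of −0.20 (standard error 0.0810), and it stayed between −0.27 and −0.15 with each library left out.

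Per length, the order of the genes in siCtrl cells was CHGB (142 RPKM), INA (7.32), SCG2 (5.41), CHGA (4.93), NEFL (3.44), REST (2.60), SYP (2.10), VGF (0.567), SCG5 (0.524) and NEFM (0.0531). Only VGF and SCG5 overlapped among neighbours in this order. In siBAP18 cells VGF moved to the second place at 17.7 ± 0.962 RPKM (SD, n = 3), behind CHGB at 99.6 ± 7.07. INA (10.1) and SCG2 (9.10) overlapped there, as did SYP (2.38) and REST (2.27), and NEFL (5.40) stood above CHGA (4.08). Among the genes tested, 24.4% had a lower mean RPKM than VGF in siCtrl and 87.9% in siBAP18, whereas CHGB exceeded 98.3% and 97.5%.

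There were 10 lists of related genes, without the 10 genes above, read in the same fit. Together they held 213 genes, of which 199 were listed in the table and 149 were tested. At an adjusted p under 0.05, 34 of the 149 were higher and 56 lower, beside 24.5% and 25.1% of all genes tested. The same shares of all genes stand beside the counts of each list below. Past both thresholds, 11 were called higher and 7 lower, or 7.38% and 4.70% of the 149, beside 4.72% and 3.74% of all genes tested. Of the 11, PTPRN, UTS2, GAD1 and NGFR had too few siCtrl counts for the filter on low counts and were tested through their siBAP18 counts. With at least 10 counts required in every library, 7 list genes were called higher. The median log2 fold change over the 149 genes was −0.12, beside 0.0010 over all genes tested. The lists were drawn up with earlier results of these libraries known, and nothing is claimed as particular to them.

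**Figure D4:**
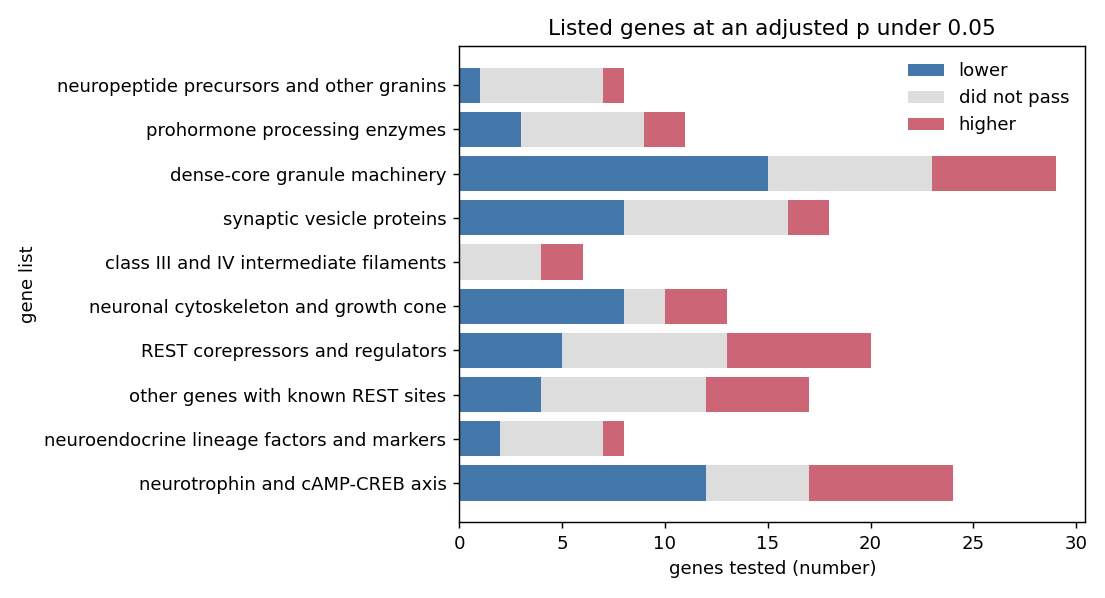
Number of tested genes in each of 10 lists that were lower, did not pass or were higher in siBAP18 cells at a Benjamini-Hochberg adjusted p below 0.05 in edgeR. The dense-core granule machinery has 15 lower and 6 higher among 29 tested genes, and the class III and IV intermediate filaments have 2 higher and 0 lower among 6. Of all genes tested, 25.1% were lower and 24.5% higher.

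The list of neuropeptide precursors and other granins was mostly silent. Of its 23 genes, 18 were listed and 8 tested. UTS2, which encodes urotensin 2, rose from 7, 0 and 2 counts in siCtrl to 13, 31 and 9 counts in siBAP18 (log2 fold change 2.43, edgeR adjusted p = 0.00287). It did not pass with limma on log2(RPKM + 1) without a filter (adjusted p = 0.0849), and its log2 fold change was 1.88 without siBAP18 replicate 2, 1.89 without siCtrl replicate 2 and 3.82 without siCtrl replicate 1. NTS, the neurotensin precursor gene and the only other one that passed the adjusted threshold, fell from 29.6 to 20.6 CPM (log2 fold change −0.53, edgeR adjusted p = 3.75e-06) and was named after its values were seen. SCG3, a granin that binds CHGA, had 8 to 16 counts in all libraries (log2 fold change 0.12, edgeR adjusted p = 0.846).

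The prohormone processing enzymes had 2 genes higher, 3 lower and 6 that did not pass among 11 tested, and none was called on both thresholds. PCSK1, a convertase of neuroendocrine granules, had 14, 22 and 14 counts in siCtrl and 44, 34 and 24 in siBAP18 (log2 fold change 0.95, edgeR adjusted p = 0.0266). It did not pass without siCtrl replicate 1 (edgeR adjusted p = 0.125), without siCtrl replicate 3 (0.0906), without siBAP18 replicate 1 (0.133), in the DESeq2 Wald test (0.0994) or with limma on log2(RPKM + 1) without a filter (0.0954). PCSK2, the partner of the SCG5 product, was at 0 counts in every siCtrl library and at 4, 0 and 2 counts in siBAP18, and was not tested. CPE, the carboxypeptidase that trims the cut peptides, was at 11.3 CPM in both groups (log2 fold change 0.0031, edgeR adjusted p = 0.981). PAM, which amidates peptides, had a log2 fold change of 0.064 (edgeR adjusted p = 0.479), which passed without siBAP18 replicate 3 (0.13, adjusted p = 0.0479).

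Of the 29 tested genes of the dense-core granule machinery, 15 were lower, 6 higher and 8 did not pass at an adjusted p under 0.05, and the median log2 fold change was −0.41. SNAP25, a SNARE protein of vesicle fusion, fell from 43.2 to 19.1 CPM (log2 fold change −1.17, standard error 0.0721, edgeR adjusted p = 1.15e-12). UNC13A, a vesicle priming factor, fell by 1.11 on the log2 scale (edgeR adjusted p = 3.41e-12), and RAB3B, a GTPase of secretory vesicles, by 1.23 (edgeR adjusted p = 2.55e-09). In the other direction STX1A, the syntaxin that pairs with SNAP25, rose from 94.8 to 212 CPM (log2 fold change 1.16, edgeR adjusted p = 1.28e-12). PTPRN, which encodes the granule membrane protein IA-2, had 0, 2 and 2 counts in siCtrl and 47, 21 and 28 in siBAP18, and was at least 10.3-fold higher with the siCtrl libraries set to a floor of 3 counts each (edgeR adjusted p = 2.14e-06). CPLX2, a regulator of SNARE complexes named after its values were seen, carried most of the list's summed level and fell from 7344 to 5351 CPM (log2 fold change −0.46, edgeR adjusted p = 4.14e-05).

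The synaptic vesicle list resembled this in direction, with 8 genes lower, 2 higher and 8 that did not pass among 18 tested (median log2 fold change −0.37). PCLO, which encodes the active zone scaffold piccolo, fell by 1.61 on the log2 scale (edgeR adjusted p = 5.53e-13). SYT5, a synaptotagmin, rose from 52, 28 and 37 counts to 212, 187 and 154 counts (log2 fold change 2.18, edgeR adjusted p = 7.66e-10).

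Among intermediate filaments of classes III and IV, 6 were tested. VIM, the mesenchymal filament gene vimentin, rose from 389 to 522 CPM (log2 fold change 0.43, edgeR adjusted p = 9.44e-06). PRPH, the peripherin gene, had a log2 fold change of 0.57 (edgeR adjusted p = 0.0177), but did not pass without siCtrl replicate 3 (0.115), without siBAP18 replicate 2 (0.0561), in the DESeq2 Wald test (0.0641) or with limma on log2(RPKM + 1) without a filter (0.102). NEFH, which encodes the heavy neurofilament subunit, had a lower mean in siBAP18, unlike NEFL, NEFM and INA, with 22, 36 and 20 counts in siCtrl and 16, 22 and 16 in siBAP18 (log2 fold change −0.60, edgeR adjusted p = 0.186). In the list of the neuronal cytoskeleton and growth cone, 8 of 13 tested genes were lower and 3 higher. MAP6 was called higher (log2 fold change 1.18, edgeR adjusted p = 3.38e-08) and MAP1A lower (−1.08, adjusted p = 4.50e-09), both of which encode microtubule-associated proteins.

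All 20 REST corepressors and regulators were tested, and 7 were higher, 5 lower and 8 did not pass at an adjusted p under 0.05. HDAC1 rose (log2 fold change 0.31, edgeR adjusted p = 4.32e-04), whereas the paralog HDAC2 (−0.25, adjusted p = 0.00373) and the demethylase gene KDM1A (−0.28, adjusted p = 8.38e-04) fell. RCOR1 had a log2 fold change of −0.24 (edgeR adjusted p = 0.0323), overlapped between the groups and did not pass in 8 of 16 alternatives. These included the fits without siCtrl replicate 2 (edgeR adjusted p = 0.230), without siBAP18 replicate 1 (0.0638) and without siBAP18 replicate 3 (0.143). The called gene was CTDSPL, a small phosphatase gene, which fell by 1.20 on the log2 scale (edgeR adjusted p = 1.51e-10).

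The genes listed for known REST sites went both ways. Among 17 tested, 5 were higher, 4 lower and 8 did not pass at an adjusted p under 0.05, and the median log2 fold change was 0.017. Past both thresholds, 3 were higher and 2 lower, beside 4.72% and 3.74% of all genes tested. The 3 were STX1A, RUNDC3A (log2 fold change 1.34, edgeR adjusted p = 4.16e-05) and GAD1, the glutamate decarboxylase gene, named after its values were seen, which had 2, 6 and 4 counts in siCtrl and 24, 24 and 21 in siBAP18 (2.43, adjusted p = 2.30e-04). The 2 that fell were SNAP25 and UNC13A. BDNF, a neurotrophin gene, rose from 16.3 to 23.7 CPM (log2 fold change 0.55, edgeR adjusted p = 5.10e-06). STMN2, a classic REST target in neurons, had at most 2 counts in any library.

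Of the neuroendocrine lineage factors and markers, 8 of 20 were tested, and 1 was higher, 2 lower and 5 did not pass at an adjusted p under 0.05. PROX1, a homeobox factor gene, had 14, 13 and 12 counts in siCtrl and 45, 50 and 25 in siBAP18 (log2 fold change 1.53, edgeR adjusted p = 5.28e-04). The 2 that fell, both named after their values were seen, were the Notch ligand gene DLL3 (log2 fold change −0.61, edgeR adjusted p = 0.00978) and the ubiquitin hydrolase gene UCHL1 (−0.19, adjusted p = 0.0241). DLL3 did not pass without siCtrl replicate 1 (edgeR adjusted p = 0.0959) or without siBAP18 replicate 2 (0.0715). UCHL1 did not pass without any 1 of the 3 siCtrl replicates or without siBAP18 replicate 1 or 2 (edgeR adjusted p = 0.0600 to 0.0940). NCAM1 had a log2 fold change of 0.96 and did not pass (edgeR adjusted p = 0.0538), except without siBAP18 replicate 2 (edgeR adjusted p = 0.0236).

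In the neurotrophin and cAMP-CREB list, 12 genes were lower, 7 higher and 5 did not pass among 24 tested. CREB1, which encodes a factor that binds the CRE, fell from 14.9 to 11.1 CPM (log2 fold change −0.43, edgeR adjusted p = 1.68e-04). The related CREM had −0.26 (edgeR adjusted p = 0.00647). In the other direction ATF1, of the same family and named after its values were seen, rose from 9.13 to 15.5 CPM (log2 fold change 0.76, edgeR adjusted p = 4.92e-08). Genes of the list that cAMP is known to induce went both ways. PER1 rose from 5.82 to 61.7 CPM (log2 fold change 3.41, edgeR adjusted p = 1.56e-19) and NR4A3 from 1.61 to 3.31 CPM (1.05, adjusted p = 6.47e-06). The genes NR4A1 (log2 fold change −0.72, edgeR adjusted p = 1.72e-06), NR4A2 (−0.34, adjusted p = 0.00257), PPARGC1A (−0.72, adjusted p = 3.16e-07), SIK1 (−0.20, adjusted p = 0.0207) and PDE4D (−0.89, adjusted p = 4.71e-11) fell, and PDE4B did not pass (−0.13, adjusted p = 0.109). These 6 were named after their values were seen. SIK1 no longer passed in 5 of 16 alternatives, among them the fits without siCtrl replicate 2 (edgeR adjusted p = 0.0994) and without siCtrl replicate 3 (0.0634). Receptors of neurotrophins moved apart. NGFR, the low-affinity receptor gene, rose from 16, 6 and 2 counts to 140, 107 and 86 counts (log2 fold change 3.72, edgeR adjusted p = 1.78e-09, and 4.62 without siCtrl replicate 1), while NTRK3 fell from 22.8 to 6.33 CPM (−1.84, adjusted p = 9.64e-14).

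The proliferation marker MKI67 fell by 1.20 on the log2 scale in the same libraries (edgeR adjusted p = 6.89e-13), and its part in the values of the 10 genes was not tested. The word ACTCAAC, which pairs with bases 2 to 8 of the guide of the siRNA named siBAP18#3 in the study, was absent from the longest 3′ UTR of all 10 genes in GENCODE 29, and 6.85% of 13617 tested genes with such a UTR held it. The words of the other BAP18 siRNAs of the study were not searched, and the siRNA used in these cultures is not stated.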

How the data were processed

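The authors deposited counts per gene for 6 libraries, as whole numbers without normalization, and RPKM values for the same genes, scaled by listed gene length and library total. Submitters' processing notes name hg38 and GRCm38. The listed positions of all 10 genes overlap their RefSeq positions on GRCh38. The aligner, the counting program and the use of strand are not given in the sources used here. Total counts ranged from 42094524 to 56548620, and floors of 3 counts cover counting error only.

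The software was R 4.3.3, edgeR 4.0.16 for the main tests, DESeq2 1.42.0 and limma 3.58.1 for alternatives, and figures were drawn with matplotlib 3.10.9. After filterByExpr, libraries were scaled with TMM and groups compared by the quasi-likelihood test of edgeR, with p-values adjusted by Benjamini-Hochberg. The procedure was tested on simulated data. The labels call the 3 cultures of a group biological replicates. No 2 libraries of a group were copies (chi-square over its degrees of freedom at least 3.94).

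The 10 genes and the lists were chosen with earlier results of these data known. Named genes were the 10 genes, BAP18 and MKI67, at most 4 called genes per list by adjusted p, 22 defining genes whatever their values, and the genes most like VGF and NEFM. Another 11 list genes were named after their values were seen. So were ATF1, ENO2 and SOX2, whose values in the alternatives were not read. Protein sequence features of the genes were planned and not run here, and 1 marker gene is not reported here. Alternatives were other scalings, filters and tests, limma on RPKM, a replicate block and each library left out.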

Additional observations from a re-analysis of the deposited data

How the results depend on the processing

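Each of the 10 genes kept its direction in every alternative run, except SCG5, whose log2 fold change was between −0.22 and 0.15 with each library left out and turned without siCtrl replicate 1. VGF was between 4.91 and 5.03 with each library left out, and was 3.58 with limma on log2(RPKM + 1), with or without its filter, and 4.74 with limma on log2(RPKM + 0.1). NEFM, at 1.25 in the main setting, was 0.099 in the unfiltered limma setting. A pseudocount understates the change of a gene that is low in 1 group. Of the 10 genes, 2 passed both call thresholds in the main setting, 1 to 2 with a library left out, and 1 under the filter of 10 counts in every library and under the 3 limma settings.

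Over all genes tested, 1758 were called, 981 higher and 777 lower. With limma on log2(RPKM + 1) these were 348, 215 and 133, without its filter 345, 212 and 133, and with limma on log2(RPKM + 0.1) 909, 475 and 434. With 10 counts in every library, 605 were called higher. Genes of the lists called higher numbered 11 in the main setting, 7 with 10 counts in every library, 2 with limma on log2(RPKM + 1), also without its filter, and 3 with log2(RPKM + 0.1). List genes called lower numbered 7 in the main setting and 1 with limma on log2(RPKM + 1), with or without its filter. At an adjusted p alone, 21 list genes were higher in both filtered limma settings, beside 34 in the main setting. The limma settings held 16484 genes with the filter and 35474 without it, and the filter of 10 counts left 18747, beside 20776 in the main setting. The cause of these differences was not tested.

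Of the genes named from the lists, CPE was −0.012 without a filter and between −0.052 and 0.075 with each library left out, and SCG3 was between −0.11 and 0.37. Both lie within their error of 0. HDAC2 (adjusted p = 0.0755), CREM (0.0633) and NR4A2 (0.101) did not pass with limma on log2(RPKM + 1) without a filter, and passed in the other 15 alternatives run on each. With the same setting the log2 fold change of NGFR was 0.55.

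The replicate block left 1741 genes called and changed no call of the 10 genes or of the genes named from the lists, ATF1, ENO2 and SOX2 not included. Libraries of the same replicate number were weakly correlated (r of deviations from the group means 0.025, 0.12 and 0.048). Of the 6 libraries, 5 correlated best with the library of their own number in the other group. These values do not settle whether the numbers pair the libraries. Depth limits NEFM most, where counting error alone was 29.7% of the mean in siCtrl. For SCG5 counting error was 13.2% of the mean in siCtrl, beside an SD of 25.6%.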
